A study of Homo sapiens with 10 samples.

Results

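The multidrug ABC transporters are a set of 9 genes whose proteins pump drugs, conjugates or lipids out of cells: ABCB1, ABCB4, ABCC1, ABCC2, ABCC3, ABCC4, ABCC5, ABCG2 and ABCA1. They were chosen by name, and each was read from the array probe set that the platform annotation gives to its symbol. A probe set was found for 8 of the 9, with no more than 1 probe set for any of them, among 21448 gene probe sets in the table. ABCC1 was not analysed here. Expression was measured in SK-N-AS and SK-N-FI, established human neuroblastoma cell lines, in 4 groups. The groups were SK-N-AS treated (3 arrays, numbered 28, 29 and 30), SK-N-AS control (3 arrays, 25, 26 and 27), SK-N-FI treated (2 arrays) and SK-N-FI control (2 arrays). Treated cells received 30 µM BG-P1600-TAT for 48 h, and control cells received PBS for the same time. BG-P1600-TAT is a conjugate directed, by the series title, at the norepinephrine transporter and thyrointegrin αvβ3. In the SK-N-AS titles the agent is written BG-P-TAT and is treated as the same one. Both lines grew in IMDM medium with serum. The labels call SK-N-AS primary, although it is an established line, and each is a single line, so that a difference between them speaks of these lines only.

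ABC transporters are membrane proteins that bind and split ATP to move a substrate across the membrane. In tumours, several of them lower the level of chemotherapy drugs inside the cell. ABCB1 (P-glycoprotein) exports many hydrophobic drugs, among them anthracyclines and vinca alkaloids, and ABCG2 exports topotecan and related drugs. The ABCC proteins carry mostly organic anions and drugs joined to glutathione or glucuronide, whereas ABCA1 hands cholesterol and phospholipid to apolipoproteins. In neuroblastoma, ABCC1, ABCC3 and ABCC4 have been studied for their relation to MYCN and to outcome.

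The members called between the lines under all 4 scalings tried were ABCC3, ABCC2 and ABCA1, with higher signals in SK-N-AS, and ABCB1 and ABCC5, with lower ones. Neither ABCB1 nor ABCC5 was above the background level, defined below, on any array. The 250 bases before the start sites that RefSeq lists (GRCh38.p14) are shown for 4 of these 5 genes, all but ABCC3, so that these can be compared. They read along the strand of the gene, and the minus strand holds ABCA1, ABCB1 and ABCC5 and the plus strand ABCC2. ABCB1 has a distal and a proximal start site in RefSeq. Capitals mark matches, on either strand, to 7 motifs. The letters GGGCGG were searched as the GC box bound by SP1 and its relatives, and CCAAT as the box bound by NF-Y. TATAAA stood for the TATA box of the basal machinery, and CACGTG for the E-box bound by MYC and other helix-loop-helix factors. The AP-1 element was searched as TGANTCA, with any base in the middle. The hexamer of nuclear receptors was searched as AGGTCA, and the core bound by the dioxin receptor as GCGTG.
ABCA1, chr9:104928156-104928405: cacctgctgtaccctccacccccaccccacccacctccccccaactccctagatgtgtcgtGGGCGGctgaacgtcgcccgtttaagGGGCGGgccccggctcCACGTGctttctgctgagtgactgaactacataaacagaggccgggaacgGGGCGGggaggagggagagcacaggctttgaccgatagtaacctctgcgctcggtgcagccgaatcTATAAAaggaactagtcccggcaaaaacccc
ABCC2, chr10:99782390-99782639: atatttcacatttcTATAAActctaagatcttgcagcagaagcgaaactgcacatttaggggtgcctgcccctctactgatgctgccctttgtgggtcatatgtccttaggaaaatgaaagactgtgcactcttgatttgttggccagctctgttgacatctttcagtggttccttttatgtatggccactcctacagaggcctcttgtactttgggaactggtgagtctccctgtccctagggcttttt
ABCB1 distal, chr7:87713296-87713545: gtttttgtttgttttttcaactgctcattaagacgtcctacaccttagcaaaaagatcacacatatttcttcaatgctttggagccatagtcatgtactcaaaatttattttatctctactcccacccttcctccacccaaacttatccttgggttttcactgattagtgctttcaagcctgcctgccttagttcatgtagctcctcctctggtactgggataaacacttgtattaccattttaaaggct
ABCB1 proximal, chr7:87600885-87601134: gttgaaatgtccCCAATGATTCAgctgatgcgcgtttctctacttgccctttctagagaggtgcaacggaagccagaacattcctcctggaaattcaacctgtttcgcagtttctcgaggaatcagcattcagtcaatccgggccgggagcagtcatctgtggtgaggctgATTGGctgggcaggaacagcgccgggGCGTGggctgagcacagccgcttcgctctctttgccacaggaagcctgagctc
ABCC5, chr3:184017885-184018134: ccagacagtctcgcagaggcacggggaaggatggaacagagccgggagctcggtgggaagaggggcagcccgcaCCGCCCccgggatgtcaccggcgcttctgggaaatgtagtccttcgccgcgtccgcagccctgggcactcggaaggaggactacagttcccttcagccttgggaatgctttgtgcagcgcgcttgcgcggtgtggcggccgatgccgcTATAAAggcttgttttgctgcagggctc

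The ABCA1 and ABCC2 windows, of genes with higher signal in SK-N-AS, had little in common. The ABCA1 window held GC boxes that begin at -189, -163 and -97 from the start site, an E-box at -147 and a TATA box at -31. The ABCC2 window held only a TATA box letter match, at -236. Among the genes with lower signal in SK-N-AS, which were below background in both lines, the distal ABCB1 window held none of the 7 motifs. The proximal one held CCAAT boxes at -238 and -79, an AP-1 element at -234 that overlaps the farther CCAAT box, and a dioxin response core at -53. The ABCC5 window held a GC box at -176 and a TATA box at -28. Of 35116 windows of this length in the table, 42.6% held a GC box, 32% a CCAAT box, 10.7% a TATA box, 6.34% an E-box, 6.57% an AP-1 element, 12.1% a nuclear receptor hexamer and 32.2% a dioxin response core. GC content was 61.6% for ABCA1, 45.6% for ABCC2, 39.2% and 55.6% for the distal and proximal ABCB1 windows and 64.8% for ABCC5, against a median of 58% over all windows.

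The values are log2 signals. Background was set array by array, and a probe set counts as above it where its signal passed the level that 95% of the 612 HTA2-neg control probe sets do not reach. That threshold lay between 6.75 and 7.23 in SK-N-AS and between 7.44 and 8.26 in SK-N-FI. The arrays of each line share a scale of their own, with medians from 6.02 to 6.09 in SK-N-AS and from 7.02 to 7.07 in SK-N-FI. The highest signals ran the other way, from 19.75 to 19.82 in SK-N-AS and from 18.12 to 18.27 in SK-N-FI. The scales thus differ in spread as well as in level. Differences of the members between the lines are therefore given under several scalings. Those of other genes are as deposited unless another scaling is named. The number of arrays limits the precision, and nothing in the labels ties the SK-N-AS arrays to separate cultures. The p-values that use these arrays, those between the lines included, thus speak of array spread alone, technical spread included. The SK-N-FI titles number replicates and name no cultures either. The lines differed in neuroblastoma markers. Of 13 noradrenergic ones, 12 were above background on every SK-N-FI array and 5 on every SK-N-AS array. Of 12 mesenchymal markers, 7 were above it on every SK-N-AS array and 3 on every SK-N-FI array. In control cells 6 of them were called higher and 2 lower in SK-N-AS (11.5% and 47.8% of all probe sets). After quantile scaling the counts were 8 and 1 (24.1% and 22.5% of all). CD44 went the other way, with a difference (SK-N-AS minus SK-N-FI) of -2.70 as deposited and -0.99 after quantile scaling. Of the epithelial, endothelial, and hepatocyte and enterocyte markers, none of 4 in each list was above background on any array. Of 3 leukocyte markers, PTPRC was above background on 5 of 6 SK-N-AS arrays and no SK-N-FI array. Control array 25 lay farthest from 0 on the main principal component within SK-N-AS, at -57.5 where the other scores ran from -31 to 50.6. Values without it are given beside some of the results.

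Across the 4 groups, transporter signals differed between the lines, and none passed the test for treatment. ABCC3, ABCC2 and ABCA1 had signals above background in SK-N-AS and within the range of the negative controls in SK-N-FI. ABCC4 was above background on all 10 arrays. ABCB1, ABCB4, ABCC5 and ABCG2 stayed under the threshold on all 10 arrays. In total 26 of 80 readings were above this threshold, and 1 of 80 exceeded the 99th percentile of the negative controls. Of all gene probe sets, 32.9% to 39.7% were above the threshold on a SK-N-AS array and 38.3% to 44.3% on a SK-N-FI array.

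**Figure D1:**
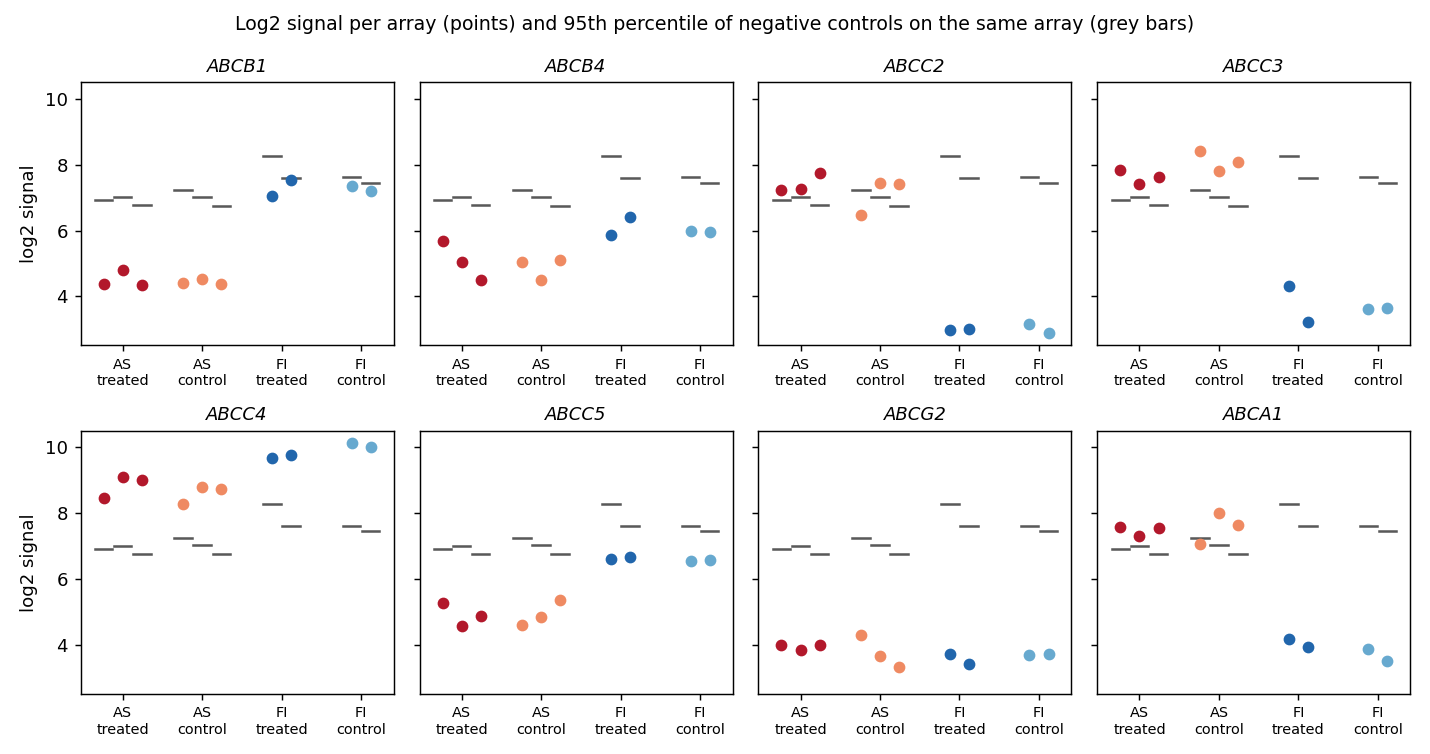
Log2 signal (vertical axis) of the 8 transporters on each array, by group; points are arrays, and the grey bar at each point is the background threshold of that array. ABCC4 lies above its bars on all 10 arrays, ABCC3 on all 6 SK-N-AS arrays, and ABCC2 and ABCA1 on 5 of 6 SK-N-AS arrays.

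ABCC3, ABCC2 and ABCA1 were the members with higher signal in SK-N-AS. ABCC3 is an exporter of glucuronides and bile salts that sits on the basolateral side of epithelial cells. Its log2 signal was 7.83, 7.41 and 7.61 in SK-N-AS treated cells and 8.42, 7.79 and 8.09 in SK-N-AS control cells. In SK-N-FI it was 4.33 and 3.22 in treated cells and 3.61 and 3.64 in control cells. All 6 SK-N-AS arrays were above background and far above every SK-N-FI array. The line difference (SK-N-AS minus SK-N-FI) was 3.84 in treated cells (limma adjusted p = 5.92e-07) and 4.47 in control cells on the log2 signal scale (SE 0.32, 95% interval 3.79 to 5.16, limma adjusted p = 1.59e-07). Since the SK-N-FI signal was below background, only a lower bound on the fold can be given. As deposited, treated cells gave none, with a SK-N-AS mean of 7.62 under the SK-N-FI threshold mean of 7.92, and control cells gave at least 1.49-fold. After quantile scaling of all arrays it was at least 2.17-fold higher in treated and at least 3.93-fold higher in control cells. Each bound, here and below, sets the SK-N-AS mean against the mean, over SK-N-FI arrays, of the higher of the background threshold and the signal itself. No allowance is made for the spread between arrays, so that each bound is a point estimate. For quantile scaling, here and below, signals were scaled among gene probe sets alone and thresholds with the negative controls included, so those bounds are approximate. All bounds hold for this threshold only, as the 99th percentile of the negative controls in SK-N-FI, 10.42 to 11.40 as deposited, lay above every ABCC3 signal.

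ABCC2 exports bilirubin glucuronide and other conjugates at the apical membrane of hepatocytes. It had log2 signals of 7.23, 7.27 and 7.73 in SK-N-AS treated cells and 6.47, 7.44 and 7.40 in SK-N-AS control cells. The SK-N-FI signals were 2.97 and 3.01 in treated cells and 3.16 and 2.88 in control cells. The SK-N-AS arrays were thus above background except control array 25, the lowest at 6.47, while the SK-N-FI arrays exceeded only 13.7% to 21.9% of the negative controls. The line difference was 4.42 in treated cells (adjusted p = 1.32e-07) and 4.08 in control cells (SE 0.30, adjusted p = 2.43e-07). As deposited, the SK-N-AS means of 7.41 in treated and 7.11 in control cells did not reach the mean SK-N-FI thresholds, so no fold is given on that scale, and after quantile scaling it was at least 1.84-fold higher in treated and at least 1.86-fold higher in control cells. Without array 25 the control difference was 4.4.

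ABCA1, the cholesterol exporter, had log2 signals of 7.58, 7.31 and 7.53 in SK-N-AS treated cells and 7.05, 8.0 and 7.63 in SK-N-AS control cells. In SK-N-FI the values were 4.19 and 3.93 in treated cells and 3.89 and 3.51 in control cells. Control array 25 was again the lowest SK-N-AS array and the only one below the threshold. The difference between the lines was 3.41 in treated cells (adjusted p = 5.98e-07) and 3.86 in control cells (SE 0.28, 95% interval 3.25 to 4.47, adjusted p = 2.05e-07). Without array 25 the control difference was 4.12. As deposited there was no bound in treated cells, where the SK-N-AS mean of 7.47 lay under the SK-N-FI threshold mean of 7.92. In control cells ABCA1 was at least 1.03-fold higher, from a mean of 7.56 against 7.52. After quantile scaling it was at least 1.94-fold in treated and at least 2.64-fold in control cells.

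ABCB1, ABCC5 and ABCB4 had lower signals in SK-N-AS, all of them at levels that negative controls also reach. ABCB1 had log2 signals of 4.39, 4.79 and 4.34 in SK-N-AS treated cells and 4.4, 4.52 and 4.38 in SK-N-AS control cells. The SK-N-FI signals were 7.04 and 7.54 in treated cells and 7.36 and 7.19 in control cells. The SK-N-FI arrays lay under the threshold, above 92.2% to 94.9% of the negative controls, and farthest from it on treated array 1, at 7.04 against 8.26, and the SK-N-AS arrays above 62.1% to 68%. The line difference of the signal was -2.78 in treated cells (adjusted p = 7.76e-07) and -2.84 in control cells (SE 0.24, 95% interval -3.36 to -2.33, adjusted p = 6.31e-07). No fold is given, as neither line was above background.

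ABCC5, which exports cyclic nucleotides and nucleotide analogues, had log2 signals of 5.26, 4.57 and 4.89 in SK-N-AS treated cells and 4.59, 4.86 and 5.37 in SK-N-AS control cells, against 6.59 and 6.66 in SK-N-FI treated cells and 6.54 and 6.57 in SK-N-FI control cells. The lines did not overlap, and the SK-N-FI arrays lay between 6.54 and 6.66. The line difference was -1.72 in treated cells (adjusted p = 1.50e-04) and -1.62 in control cells (SE 0.27, adjusted p = 2.37e-04). ABCB4, a phospholipid floppase of bile secretion whose gene lies beside ABCB1, had log2 signals of 5.68, 5.06 and 4.49 in SK-N-AS treated cells and 5.05, 4.5 and 5.12 in SK-N-AS control cells. Its SK-N-FI signals were 5.86 and 6.40 in treated cells and 5.98 and 5.95 in control cells. The line difference was -1.05 in treated cells (adjusted p = 0.0163) and -1.08 in control cells (SE 0.33, adjusted p = 0.0145). It was called in both with arrays centred on negative control medians (-0.97, adjusted p = 0.0196, and -0.93, adjusted p = 0.0232). In neither did it pass after quantile scaling (control cells -0.58, adjusted p = 0.222) or with arrays centred on their gene medians (control cells -0.23, adjusted p = 0.569). Leaving out SK-N-FI control array 1 or 2 or SK-N-AS control array 26 also ended the call (adjusted p = 0.0713, 0.0631 and 0.0511).

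ABCC4, an exporter of cyclic nucleotides, prostaglandins and nucleoside analogue drugs, was above background on every array, and the direction of its line difference depended on the scaling. Its log2 signal was 8.46, 9.09 and 9.0 in SK-N-AS treated cells and 8.28, 8.80 and 8.72 in SK-N-AS control cells. In SK-N-FI it was 9.66 and 9.77 in treated cells and 10.13 and 10.01 in control cells. As deposited, every SK-N-FI array was higher, with a line difference of -0.87 in treated cells (adjusted p = 0.0106) and -1.47 in control cells (adjusted p = 2.86e-04). After quantile scaling the difference was 0.81 in treated cells (adjusted p = 0.0169) and 0.25 in control cells (adjusted p = 0.422). With arrays centred on gene medians it was -0.03 in treated cells (adjusted p = 0.919) and -0.63 in control cells (adjusted p = 0.0417). Centred on negative control medians, it was -0.78 in treated cells (adjusted p = 0.0305) and -1.33 in control cells (adjusted p = 0.00145). By its place among the gene probe sets of the same array, ABCC4 lay between the 76.4th and 82nd percentile in SK-N-AS. In SK-N-FI it lay between the 72.8th and 76.8th. The ranges overlapped only through SK-N-AS control array 25, at 76.4, and the other SK-N-AS arrays lay above every SK-N-FI array.

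ABCG2, the breast cancer resistance protein, gave a signal like that of a typical negative control in every group. It had log2 signals of 4.0, 3.86 and 4.01 in SK-N-AS treated cells and 4.29, 3.65 and 3.33 in SK-N-AS control cells. SK-N-FI treated cells had 3.71 and 3.42, and SK-N-FI control cells 3.70 and 3.72. It exceeded 33.8% to 59.2% of the negative controls in SK-N-AS and 30.2% to 40.8% in SK-N-FI. The line difference was 0.04 in control cells (95% interval -0.55 to 0.63, adjusted p = 0.907). It was called with arrays centred on gene medians (0.88, adjusted p = 0.0149), a scaling that moves all differences up.

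**Figure D2:**
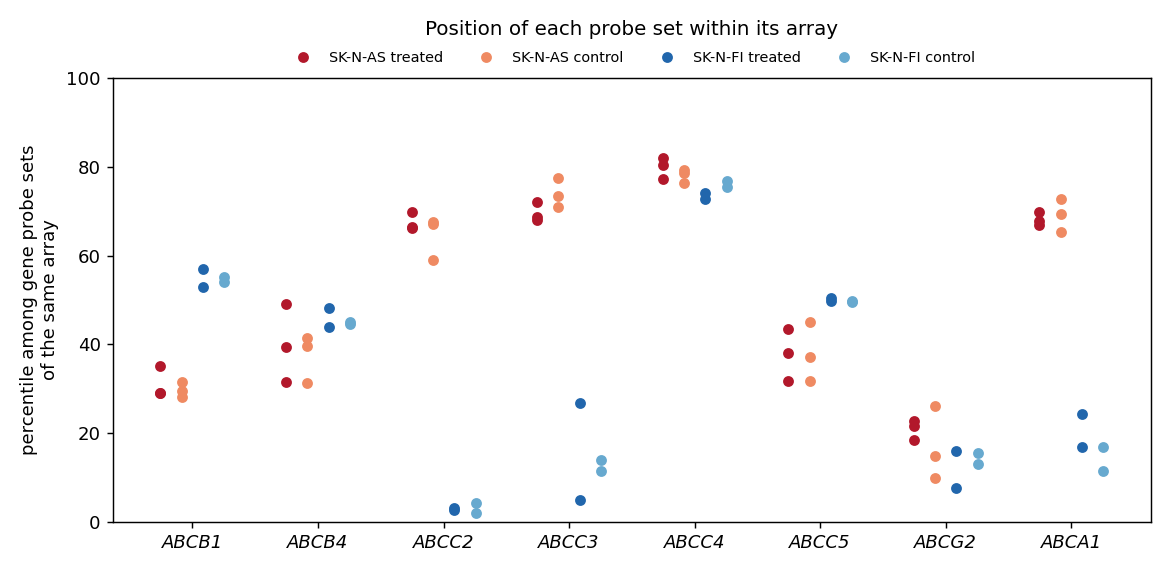
Percentile of each transporter's signal among the 21448 gene probe sets of the same array (vertical axis); points are arrays, coloured by group. ABCC2 lies between 59.1 and 69.8 in SK-N-AS and between 1.96 and 4.26 in SK-N-FI, and its treated and control arrays overlap within each line. In SK-N-FI the treated and control arrays of ABCC4, ABCC5 and ABCA1 do not overlap.

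By limma at an adjusted p under 0.05, 7 of the 8 members were called between the lines in control cells, where 59.3% of all gene probe sets were, so a called difference is common. In SK-N-AS 3 of them were higher and 4 lower, against 11.5% higher and 47.8% lower among all. The comparison in treated cells, which shares its error estimate with that in control cells, gave 7 of 8 as well, again 3 higher and 4 lower, against 59.0% of all (11.2% higher and 47.8% lower). The lines did not overlap for 8 of 8 members in treated cells (72.2% of all probe sets) and for 7 of 8 in control cells (73.1%). After quantile scaling, 6 members were called in treated cells, 4 higher and 2 lower, against 45.4% of all (23.5% higher and 21.9% lower). In control cells it was 5 members, 3 higher and 2 lower, against 46.6% of all (24.1% higher and 22.5% lower). With arrays centred on gene medians 6 were called in treated and 7 in control cells, against 61.6% and 62.7% of all. Centring on the negative controls gave 7 in both, against 57.7% and 57.6% of all. These scalings move every difference, and the median log2 difference of all probe sets in control cells was -0.61 as deposited, 0.04 after quantile scaling, 0.23 with gene medians and -0.47 with negative controls. The members had a median of -0.52 as deposited, with 4 on either side of 0.

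ABCC3, ABCC2 and ABCA1 were called higher, and ABCB1 and ABCC5 lower, under all 4 scalings in both treated and control cells. Over those scalings in control cells, the difference ran from 4.47 to 5.32 for ABCC3, from 4.08 to 4.93 for ABCC2, from 3.86 to 4.71 for ABCA1, from -2.84 to -2.00 for ABCB1 and from -1.62 to -0.78 for ABCC5. The scalings are not separate checks. Both centrings subtract a constant from each array of the deposited values, and only quantile scaling alters the spread. The array medians differ by line, and an effect of separate processing and one of the line cannot be told apart. In bulk RNA, fewer expressing cells and less RNA per cell cannot be told apart either.

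**Figure D3:**
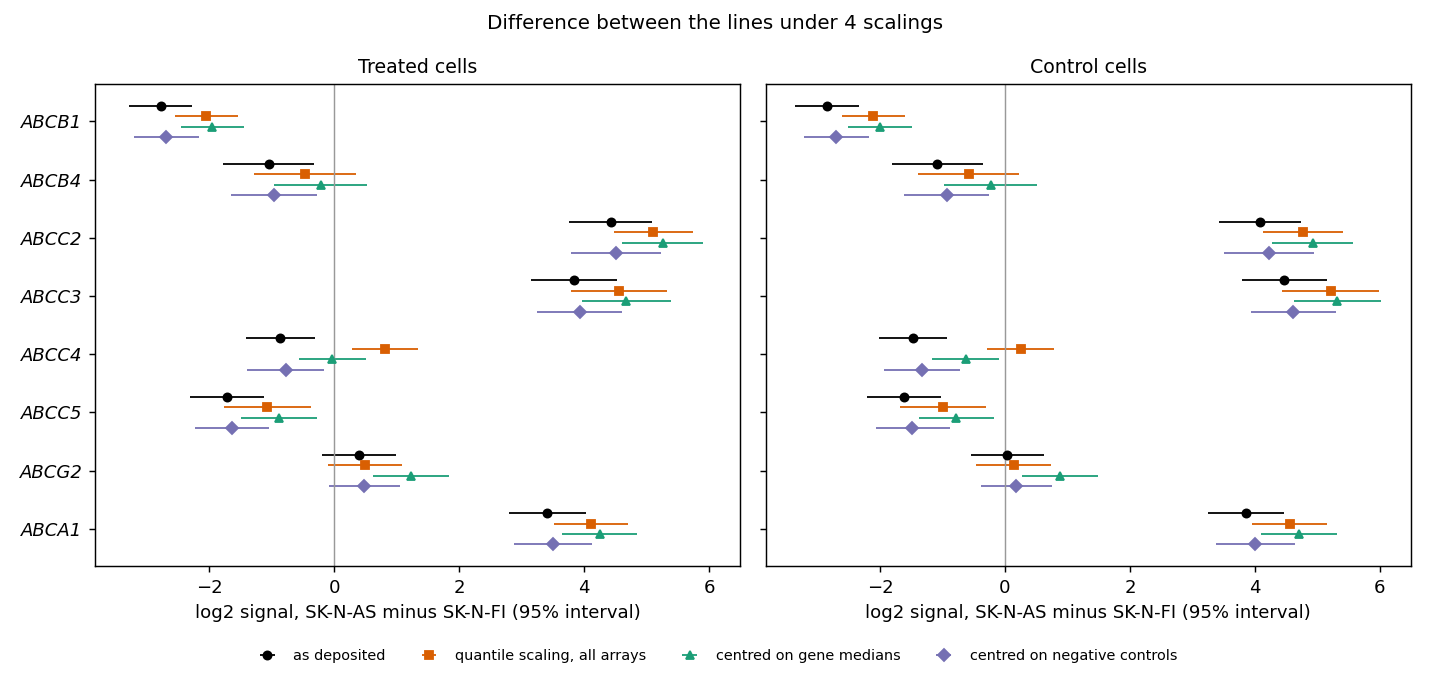
Log2 signal difference, SK-N-AS minus SK-N-FI (horizontal axis), for each transporter in treated and in control cells under 4 scalings; points are limma estimates and bars 95% intervals. ABCC4 changes side with the scaling, with -1.47 as deposited and 0.25 after quantile scaling in control cells, while the points of ABCC2, ABCC3 and ABCA1 lie at 3.41 or more.

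The treatment comparison asked whether the conjugate changed transporter expression within a line. No member changed by the test in either line. Limma called 0 of 21448 gene probe sets in SK-N-AS (0%) and 0 in SK-N-FI (0%), and at an unadjusted p under 0.05 there were 557 and 611 of all probe sets and 0 of the 8 members in each line. Every adjusted p of a member was 1. In SK-N-AS the treated mean was above the control mean for 5 members and below it for 3, with a median log2 change of 0.13 (all probe sets -0.00). In SK-N-FI the counts were also 5 and 3, with a median of 0.04 (all probe sets -0.01).

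The change with the smallest unadjusted p in SK-N-AS was that of ABCC3, with a mean log2 signal of 7.62 ± 0.21 in treated and 8.10 ± 0.32 in control cells (SD, n = 3 each). Its log2 change was -0.48 (95% interval -1.02 to 0.05), and treated array 28 overlapped the control arrays. Leaving out single arrays gave changes from -0.64 to -0.32, the latter without control array 25. ABCC2 averaged 7.41 ± 0.28 in treated and 7.11 ± 0.55 in control cells, a change of 0.30 (-0.38 to 0.98) that was -0.01 without control array 25. ABCC4 averaged 8.85 ± 0.34 in treated and 8.60 ± 0.28 in control cells, a change of 0.25 (-0.32 to 0.81) that was 0.09 without control array 25. ABCA1 averaged 7.47 ± 0.14 in treated and 7.56 ± 0.48 in control cells, a change of -0.09 (-0.70 to 0.51) that was -0.35 without it. For the members that did not exceed background in SK-N-AS, the signal changes were 0.07 for ABCB1, 0.19 for ABCB4, -0.03 for ABCC5 and 0.20 for ABCG2. The treated and control arrays overlapped for all 8 members, where 7.31% of all probe sets had groups without overlap.

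In SK-N-FI only ABCC4 was above background, at 9.71 ± 0.08 in treated and 10.07 ± 0.09 in control cells (log2 signal, SD, n = 2 each). Both treated arrays were below both control arrays, and the log2 change was -0.36 (95% interval -0.85 to 0.14, unadjusted p = 0.133), which did not pass. Groups did not overlap for 3 of 8 members, ABCC4, ABCC5 and ABCA1, and for 27.8% of all probe sets. ABCA1 had a signal of 4.06 ± 0.18 in treated and 3.70 ± 0.27 in control cells, a change of 0.36 (-0.20 to 0.92) below background. The signal changes of the others were 0.01 for ABCB1, 0.17 for ABCB4, -0.03 for ABCC2, 0.15 for ABCC3, 0.07 for ABCC5 and -0.15 for ABCG2.

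The 95% interval excluded a 2-fold change in either direction for 7 of 8 members in SK-N-AS, all but ABCC3, and for all 8 in SK-N-FI. Among all gene probe sets the share was 82.1% in SK-N-AS and 84.9% in SK-N-FI. For a member below background this concerns the signal and says little of the transcript. The interval bears most directly on the transcript for ABCC4, which was above background on every array of both lines. In SK-N-AS, ABCC2 and ABCA1 were each under the threshold on control array 25. Their means in SK-N-AS control cells lay only 0.10 and 0.56 above the threshold on the log2 scale. For them the signal interval does not exclude a 2-fold change of the transcript.

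**Figure D4:**
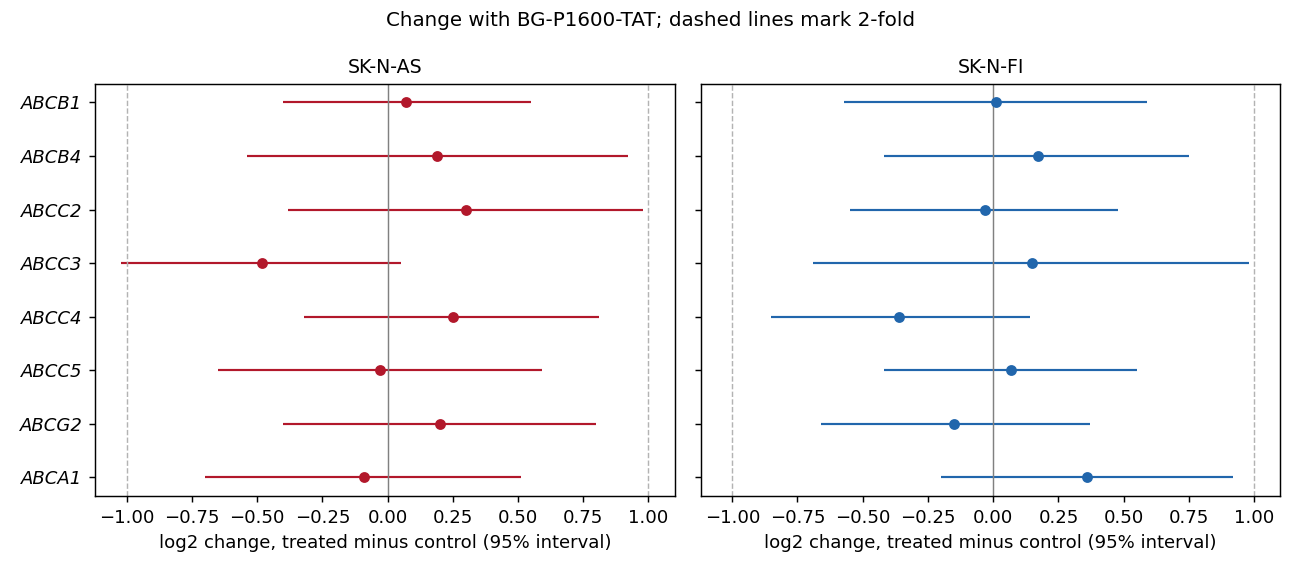
Log2 change, treated minus control (horizontal axis), for each transporter in SK-N-AS and in SK-N-FI; points are limma estimates, bars 95% intervals, and dashed lines mark a 2-fold change. Every interval includes 0, and only that of ABCC3 in SK-N-AS, from -1.02 to 0.05, reaches past a dashed line.

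The treatment effects of the lines were set against each other with an interaction term, which called 0 of 21448 probe sets (0%), with 457 of all probe sets and 0 members at an unadjusted p under 0.05. The largest differences (SK-N-AS change minus SK-N-FI change) were -0.63 for ABCC3 (95% interval -1.60 to 0.34) and 0.60 for ABCC4 (-0.18 to 1.39). The ABCC3 value subtracts a signal change below background in SK-N-FI, and was -0.08 without SK-N-FI treated array 1 and -1.19 without SK-N-FI treated array 2. ABCC4 had a change of 0.25 in SK-N-AS and -0.36 in SK-N-FI, and the test of this difference had an unadjusted p of 0.118 and an adjusted p of 1. The interval stayed within 2-fold for ABCB1 and ABCC5 only, so that differences of 2-fold or more between the lines' responses were not excluded for the other 6.

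The rest of the ABC family was examined for the same contrasts. Of 39 other family genes listed, 34 had a probe set, 4 were above background on every SK-N-AS array and 4 on every SK-N-FI array. In control cells 5 were called higher and 11 lower in SK-N-AS as deposited, where 11.5% and 47.8% of all probe sets were, and the median difference was -0.14, where that of all was -0.61. After quantile scaling the counts were 8 and 6 (24.1% and 22.5% of all), with a median of 0.26 (0.04 for all). ABCD2, a peroxisomal importer of very long chain fatty acids, averaged 5.59 ± 0.30 in SK-N-AS control cells, below background, and 11.03 ± 0.04 in SK-N-FI control cells (log2 signal, SD, n = 3 and n = 2). ABCD3, another peroxisomal fatty acid transporter, averaged 9.32 ± 0.75 in SK-N-AS and 12.22 ± 0.09 in SK-N-FI control cells. The ABCD3 difference was -2.90 as deposited and -1.31 after quantile scaling. TAP2, a subunit of the peptide pump that loads HLA class I, averaged 7.96 ± 0.38 in SK-N-AS control cells and 7.23 ± 0.05 in SK-N-FI control cells, where it was below background. Its difference was 0.73 as deposited (adjusted p = 0.042) and 2.06 after quantile scaling (adjusted p = 3.08e-04), and the call as deposited was lost when any of 7 single arrays was left out, for example SK-N-AS control array 25 (0.55, adjusted p = 0.127). No other family gene was called for treatment. The smallest unadjusted p-values in SK-N-AS were those of ABCC9, a subunit of potassium channels, with a log2 change of -0.72, ABCD4 with -0.59 and ABCA2 with 0.43. In SK-N-FI they were those of ABCB5 (-0.48), ABCC9 (-0.48) and ABCA6 (-0.42). None of these passed (adjusted p = 1), and of them only ABCD4 was above background on any array of its line, on 5 of 6.

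**Figure D5:**
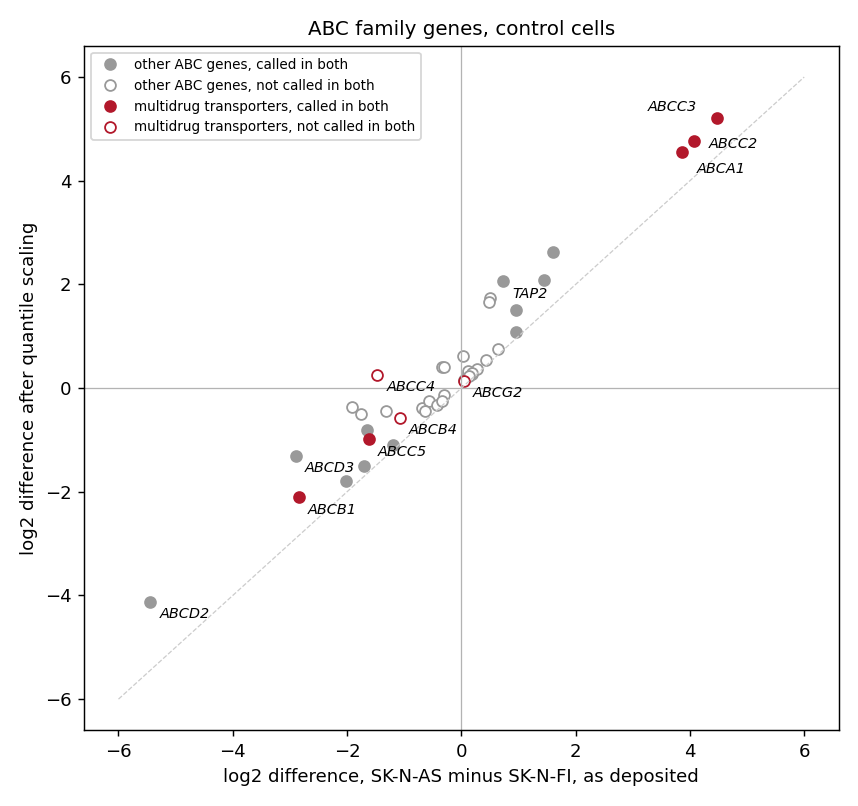
Log2 difference in control cells, SK-N-AS minus SK-N-FI, as deposited (horizontal axis) and after quantile scaling over all arrays (vertical axis), for 8 multidrug transporters (red) and 34 other ABC family genes (grey); filled points were called under both, and the dashed line marks equal values. ABCC2, ABCC3 and ABCA1 lie at the upper right, between 3.86 and 4.47 as deposited, and ABCD2 at the lower left, at -5.44.

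Genes that act on the same drugs or control the same transporters were described by the same contrasts. Their counts are to be read against all probe sets in control cells, of which 11.5% were higher and 47.8% lower in SK-N-AS as deposited, and 24.1% and 22.5% after quantile scaling. Of 21 regulators with a probe set, 3 were called higher and 12 lower in SK-N-AS control cells, and 6 and 8 after quantile scaling. AHR, the dioxin receptor and an activator of detoxification genes, averaged 10.69 ± 1.22 in SK-N-AS and 4.68 ± 0.12, below background, in SK-N-FI control cells (log2 signal, SD, n = 3 and n = 2). MYC averaged 7.96 ± 0.29 in SK-N-AS and 4.84 ± 0.01 in SK-N-FI, also below background, and MYCN 4.09 ± 0.23 in SK-N-AS, below background, and 10.15 ± 0.43 in SK-N-FI. FOXO3 was lower in SK-N-AS, with a line difference of -3.57 as deposited and -1.91 after quantile scaling. EGR1 and SREBF2 were called lower too, EGR1 with 0 and SREBF2 with 3 of 6 SK-N-AS arrays above background, and their differences are not given. Of 21 conjugation and glutathione enzymes, 5 were higher and 12 lower as deposited, and 9 and 3 after quantile scaling. NQO1, a quinone reductase, averaged 13.72 ± 0.23 in SK-N-AS and 9.58 ± 0.20 in SK-N-FI control cells, and GSTP1, a glutathione transferase, 9.27 ± 0.46 in SK-N-AS and 12.44 ± 0.07 in SK-N-FI. The GSTP1 difference was -3.16 as deposited and -1.61 after quantile scaling. After quantile scaling the differences of MGST3 and GSTO1 were 2.47 and 2.69, larger than the deposited ones that follow. MGST3 and GSTO1 were higher in SK-N-AS, with log2 differences of 1.09 and 1.08, and GSTO1 was no longer called without SK-N-FI control array 1 (1.0, adjusted p = 0.0841).

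Of 17 genes of drug uptake and handling, 2 were higher and 9 lower in SK-N-AS control cells, and 3 and 6 after quantile scaling. SLCO2B1, an uptake carrier of organic anions, averaged 9.22 ± 0.24 in SK-N-AS and 3.28 ± 0.33 in SK-N-FI control cells, and SLCO4A1, a related carrier, 7.36 ± 0.22 in SK-N-AS and 4.14 ± 0.24 in SK-N-FI, both below background in SK-N-FI. SLC29A1, the nucleoside carrier, differed by -3.43 as deposited, the copper transporter SLC31A1 by -2.26, and TOP2A, the target of anthracyclines, by -5.47. After quantile scaling these differences were -1.75, -2.00 and -4.29. ATP7A, another copper transporter, was called lower, with 0 of 6 SK-N-AS arrays above background. TOP2A was spread widely among SK-N-AS control arrays (8.75 ± 1.91). Of 7 sterol efflux partners, 2 were higher and 1 lower, and 4 and 0 after quantile scaling. APOE, an acceptor of ABCA1 lipid, averaged 11.47 ± 0.14 in SK-N-AS and 6.90 ± 0.03 in SK-N-FI control cells, where it was below background, and PLTP 11.11 ± 0.11 in SK-N-AS and 9.16 ± 0.01 in SK-N-FI. In treatment, limma called 0 genes of these 4 lists in either line, and at an unadjusted p under 0.05 no list had more than 1 gene in SK-N-AS or more than 2 in SK-N-FI.

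Profiles over the 10 arrays, each centred on its own mean, were compared among 7888 named genes above background on every array of at least 1 line. The root mean square difference was smallest, for ABCC3, with PFKFB3 (0.26 on the log2 scale), MRC2 (0.31) and ITGA3 (0.34). ABCC3 passed that filter only through SK-N-AS, and in SK-N-FI it and these genes averaged below background. Their likeness thus rests largely on a line gap of similar size whose lower side is background signal. PFKFB3 averaged 7.61 in SK-N-AS and 3.53 in SK-N-FI. For ABCC4 the nearest were TMED8 (0.13), LYRM2 (0.14) and PTP4A1 (0.14). TMED8 averaged 8.57 in SK-N-AS and 9.78 in SK-N-FI. The arrays of a line share culture and scale, and the points are not independent of it.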

How the data were processed

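Total RNA was hybridised to Affymetrix whole-transcript arrays, per the labels, and the authors deposited 1 log2 value for each probe set and array. Per the submitters' processing notes, RMA and Transcriptome Analysis Console 4.0.1.36 were used, with no role given; RMA as a rule normalizes between arrays, and other settings are not given in the sources used here. The table held 24351 probe sets, of which 2903 were controls. A symbol was given for 17709 gene probe sets and none for 3739; all 17709 gene identifiers matched RefSeq of GRCh38.p14. Groups follow the titles. For SK-N-FI, 2 arrays per group were used here, fewer than the design text speaks of. Fits ran over all 21448 gene probe sets with limma 3.58.1 (R 4.3.3; lmFit and eBayes), within each line for treatment and over 4 groups for the interaction and the line contrasts, with Benjamini-Hochberg adjustment and a threshold of 0.05. The fits were checked on simulated data. Named genes were all members, and per list up to 6 genes with the largest line difference called under both scalings, above background on every array of 1 line, and up to 3 with the smallest treatment p, which are printed for the ABC family only. The members and lists were chosen with earlier results of these data known. Alternatives are given in the closing section.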

Additional observations from a re-analysis of the deposited data

How the results depend on the processing

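No treatment or interaction call was made under any alternative run, which were eBayes with trend and robust settings, quantile scaling, dropping dim probe sets, array weights, the shared fit, and each array left out (0 to 0 called probe sets and members). The replicate block in SK-N-FI also called 0 probe sets. Its shared numbers are not known to pair the arrays, as the deviations of same-numbered arrays correlated at -0.17, and a crossed block, chosen after seeing the data, called 0 as well. The line difference in treated cells had 12665 calls and the line difference in control cells 12726. Without dim probe sets the counts were 8168 and 8213, since only 9780 were tested, and the members left numbered 4, all called. ABCC2, ABCC3 and ABCA1 passed that filter only through SK-N-AS, where they are high, so their calls there add nothing. Leaving out single arrays gave 10802 to 12915 calls in treated and 10722 to 12840 in control cells, with 5 to 7 and 6 to 7 members called. Besides ABCB4, the member whose call ended was ABCC4 in treated cells, without SK-N-FI treated array 2 (-0.81, adjusted p = 0.0658). Readings above background numbered 26 of 80 with the 95th and 1 with the 99th percentile of the negative controls.

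Values that turned sign were the following. The ABCC4 line difference was 0.81 in treated and 0.25 in control cells after quantile scaling. The ABCG2 line difference in control cells ran from -0.22 to 0.25 over left-out arrays, and was -0.22 without arrays 25 and 28, a choice made after seeing the data. The same choice gave -0.04 for the ABCB4 change in SK-N-AS and -0.20 for its difference between the lines, which was -0.02 with array weights. Over left-out arrays, uncalled changes in SK-N-AS ran from -0.07 to 0.16 (ABCB1), -0.12 to 0.48 (ABCB4), -0.01 to 0.47 (ABCC2), -0.21 to 0.18 (ABCC5), -0.01 to 0.47 (ABCG2) and -0.35 to 0.13 (ABCA1). In SK-N-FI they ran from -0.24 to 0.26 (ABCB1), -0.11 to 0.44 (ABCB4), -0.17 to 0.10 (ABCC2) and -0.41 to 0.71 (ABCC3). Differences of the effect between the lines ran from -0.19 to 0.31 (ABCB1), -0.28 to 0.32 (ABCB4) and -0.28 to 0.11 (ABCC5). The cause of these turns was not tested. Signals near background limit what the arrays can show for ABCB1, ABCB4, ABCC5 and ABCG2.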

Other observations

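PTPRC, which encodes the leukocyte phosphatase CD45 and is not a gene of the report's comparisons, varied widely among SK-N-AS arrays. Its log2 signal was 6.92, 7.68 and 9.09 in treated arrays 28, 29 and 30 and 6.01, 8.65 and 7.83 in control arrays 25, 26 and 27. In SK-N-FI it was 4.67 and 5.18 in treated and 4.69 and 4.19 in control cells. The other leukocyte markers with a probe set, CD3E and CD14, were not above background on any array. The order of the PTPRC values within SK-N-AS was that of the scores on the main component of these arrays for the lowest and highest arrays, 25 (-57.5) and 30 (50.6), and no cause was tested.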
